A study of Mus musculus with 1536 samples.

Results

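Ephrins and their Eph receptors are signalling proteins on the surface of neighbouring cells, and 8 genes of this family were examined in lymphatic endothelial cells (LECs) of the mouse nasopharynx. They are the ligands *Efnb1*, *Efnb2*, *Efna1* and *Efna5* and the receptors *Ephb1*, *Ephb4*, *Epha2* and *Epha4*. These genes were chosen by name, and all 8 were among the 23168 genes of the adult matrix. The mucosa of 30 male and female C57BL/6 mice aged 10–12 weeks was pooled, and CD31+PDPN+ cells were sorted singly into wells for Smart-seq3, which reads cDNA along its full length. All of them are untreated adult LECs, so the cells were compared only by the genes they express. Aged cells were not analysed here.

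A value below is ln(1 + r), where r is the number of reads of a gene per 10000 reads of the cell. Neither mouse nor plate can be read from the cell names, so the cells are 1 pooled sample and no test was made. Shares of cells with at least 1 read are given with exact Clopper–Pearson 95% intervals, which cover counting error only, and a standard deviation over cells describes these cells only. Reads per cell ranged from 7433 to 3524358 (median 350746), and no doublet caller was run. The LEC markers *Prox1*, *Flt4* and *Mmrn1* were found in 97.7%, 99.8% and 100% of the cells. Of the 5 immune markers, *Ptprc* and *Cd3e* were found in 0 cells, but *Cd68* in 15.7%, *Lyz2* in 7.96% and *Cd79a* in 2.85%. Of the 5 mural markers, *Des* was found in 0 cells and the others in 0.831% to 2.49%, led by *Acta2*. A count of 0 here has an exact interval up to 0.437%, or up to 0.356% with 3 cells taken as the limit.

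Ephrins are held in the membrane, those of class A by a lipid anchor and those of class B by a transmembrane segment, and Ephs are receptor tyrosine kinases, so that contact between cells can send signals into the cell with the receptor and into the cell with the ligand. Ephrin-B2 is known as a marker of arterial and EphB4 of venous endothelium. In lymphatic vessels, both are known to take part in the remodelling of the plexus and in the formation and upkeep of valves.

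*Efnb1* (chromosome X, 99136130 to 99148991, GRCm38) and *Efnb2* (chromosome 8, 8617434 to 8661242, minus strand) encode closely related class B ligands, so their reads could be confused where their coding sequences agree. The last 34 codons of each, stop codon included, are the end of the cytoplasmic tail. They are shown because they encode the same amino acids in both proteins. They were read from GENCODE M21 transcripts at chrX:99147426-99147527 (plus strand) and chr8:8620588-8620689 (minus strand), and capitals mark the bases that differ.
Efnb1: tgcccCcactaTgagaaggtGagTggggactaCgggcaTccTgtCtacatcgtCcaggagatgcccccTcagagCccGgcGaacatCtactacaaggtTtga
Efnb2: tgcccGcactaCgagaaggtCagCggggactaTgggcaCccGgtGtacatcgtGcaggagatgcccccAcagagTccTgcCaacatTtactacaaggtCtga
The 2 stretches differ at 15 bases, all at the third position of a codon, and are 85.3% identical. No pair among the 28 pairs of the 8 genes shares a stretch of 50 identical bases in its transcripts. The exons of *Ephb4* (chromosome 5, 137350109 to 137378669) overlap those of *Zan* on the other strand, and those of *Ephb1* (chromosome 9, 101922128 to 102354693) overlap *Gm26846*, also on the other strand. Whether reads were assigned by strand is not given in the sources used here.

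The 250 bases before the RefSeq starts of *Efnb2* and *Epha4* (chromosome 1, 77367185 to 77515088) are shown because these 2 genes had lower values in the same cells, described further on. Both are on the minus strand of GRCm38, at chr8:8661243-8661492 for *Efnb2* and chr1:77515089-77515338 for *Epha4*. Capitals mark the GC box GGGCGG, searched on both strands.
Efnb2: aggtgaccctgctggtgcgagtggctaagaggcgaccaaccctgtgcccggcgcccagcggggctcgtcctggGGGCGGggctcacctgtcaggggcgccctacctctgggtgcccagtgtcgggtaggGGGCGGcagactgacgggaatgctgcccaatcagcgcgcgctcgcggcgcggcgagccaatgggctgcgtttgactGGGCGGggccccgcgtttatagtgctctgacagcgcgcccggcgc
Epha4: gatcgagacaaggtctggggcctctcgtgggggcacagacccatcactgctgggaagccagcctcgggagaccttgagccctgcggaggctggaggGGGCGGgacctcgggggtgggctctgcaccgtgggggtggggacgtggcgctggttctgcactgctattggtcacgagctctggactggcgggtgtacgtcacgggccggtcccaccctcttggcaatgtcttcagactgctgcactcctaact
The window of *Efnb2* holds 3 GC boxes and 27 CpG dinucleotides, and that of *Epha4* holds 1 GC box and 14 CpG. Of all 32851 windows of this length, 32.7% hold a GC box, and the median number of CpG is 6. The match describes the letters only.

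The ligand *Efna1* and the receptor *Ephb4* were found in most adult LECs, *Efnb2* in nearly as many, and *Efnb1*, *Ephb1* and *Epha4* in few. *Efna1* encodes ephrin-A1, a ligand of EphA2. It was found in 88.8% of the cells (interval 86.5 to 90.9), and its values ran from 0 to 3.40 with a median of 1.52. Its mean was 1.42 ± 0.917 (SD over all cells). *Efnb2* was found in 74.2% (71.1 to 77.2), with values from 0 to 3.03, a median of 0.654 and a mean of 0.702 ± 0.666. *Efna5*, another class A ligand, was found in 23.9% (21.03 to 26.9) and reached 1.75, with a median of 0. *Efnb1* was found in 55 cells (6.53%, 4.96 to 8.42), and 1 cell held 10.99% of its summed reads per 10000.

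Among the receptors, *Ephb4*, which binds ephrin-B2, was found in 85.04% of the cells (82.4 to 87.4), with values from 0 to 3.10, a median of 0.880 and a mean of 0.855 ± 0.650. *Epha2* was found in 51.7% (48.2 to 55.1), with a median of 0.0143, a highest value of 2.65 and a mean of 0.380 ± 0.583. *Epha4*, which can bind ephrins of both classes, was found in 64 cells (7.60%, 5.90 to 9.60), and its highest value was 1.36. *Ephb1* was found in 58 cells (6.89%, 5.27 to 8.81), reached 2.41, and had 15.5% of its summed reads per 10000 in 1 cell. The intervals of *Efnb1*, *Ephb1* and *Epha4* overlapped each other, so the order of these 3 shares is not resolved. Measured markers of immune, fibroblast, epithelial, mural and Schwann cells were found in 0% to 15.7% of the same cells, a range that holds the shares of these 3 genes. The part that stray reads had in such shares was not tested.

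**Figure D1:**
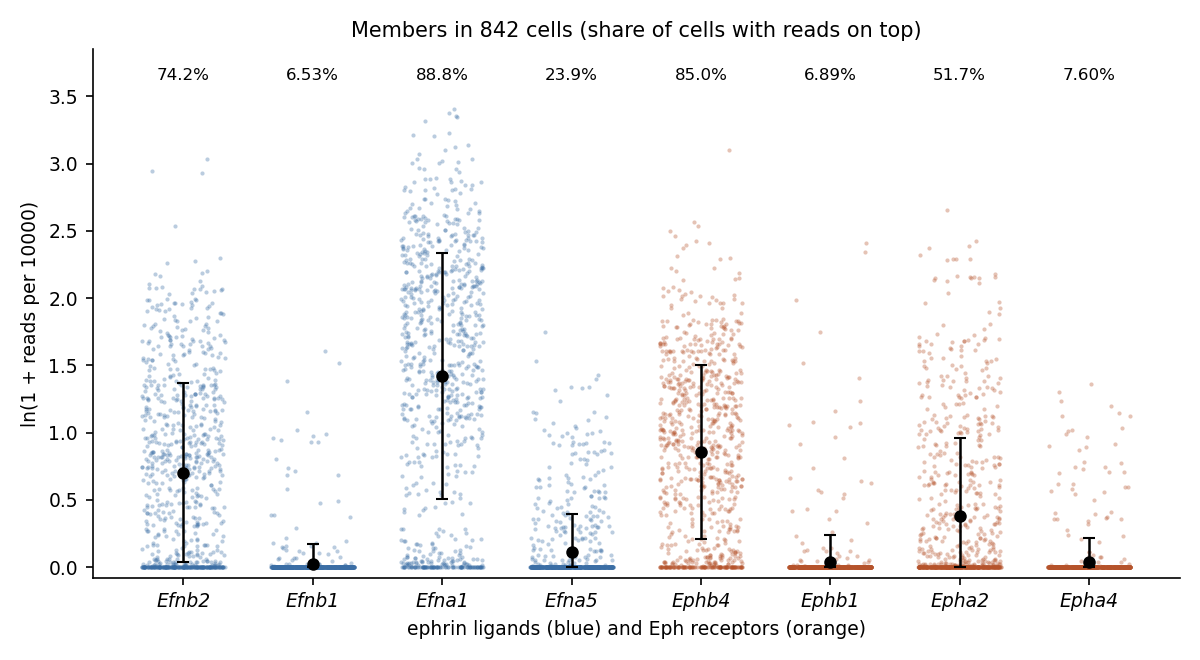
Values of the 8 genes in all adult LECs of the matrix on the scale ln(1 + reads per 10000), 1 point per cell, with the mean and SD over cells in black (the lower bar ends at 0 at the lowest) and the share of cells with reads on top. *Efna1* spreads up to 3.40 with few cells at 0, whereas *Efnb1*, *Ephb1* and *Epha4* are at 0 in all but 55, 58 and 64 cells.

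Shares depended on depth for all 8 genes. Cells were put into 4 sets of like size by their reads. Of the set with the fewest reads, 60.7% of cells had *Efnb2*, and of the set with the most 83.9%. Between these sets *Epha2* went from 36.02% to 64.5%, and for *Epha4* from 2.37% to 11.8%. After each cell had been thinned to 20000 reads (51 shallower cells could not be used), *Efna1* was found in 78.6%, *Ephb4* in 70.7%, *Efnb2* in 61.2%, *Epha2* in 34.3%, *Efna5* in 14.5%, *Epha4* in 5.18%, *Ephb1* in 3.92% and *Efnb1* in 2.78%. The order of the first 5 genes was the same with and without thinning.

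Smart-seq3 reads cover whole transcripts, so levels were compared between genes per kilobase of exon. *Efna1* had the highest mean level of the family, at 2.74 reads per 10000 per kilobase. *Ephb4* followed at 0.413, *Efnb2* at 0.230 and *Epha2* at 0.178. *Efna5* was at 0.0445, and *Efnb1*, *Ephb1* and *Epha4* were at 0.0124, 0.0111 and 0.00786. Among all genes with an exon length, *Efna1* lay at percentile 99 of this level and *Epha4* at percentile 42.9. Of the other 14 family genes, 12 are in the matrix, and among them *Epha1*, a class A receptor, was the only one found in at least 5% of the cells (16.2%, with a level of 0.0401). *Epha1* was thus above 3 of the 8 genes by level, though its exons overlap *Zyx* on the other strand. *Efna4* was found in 1.78% of the cells and *Epha6* in none, and *Epha3* and *Epha8* are not among the genes of the matrix.

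**Figure D2:**
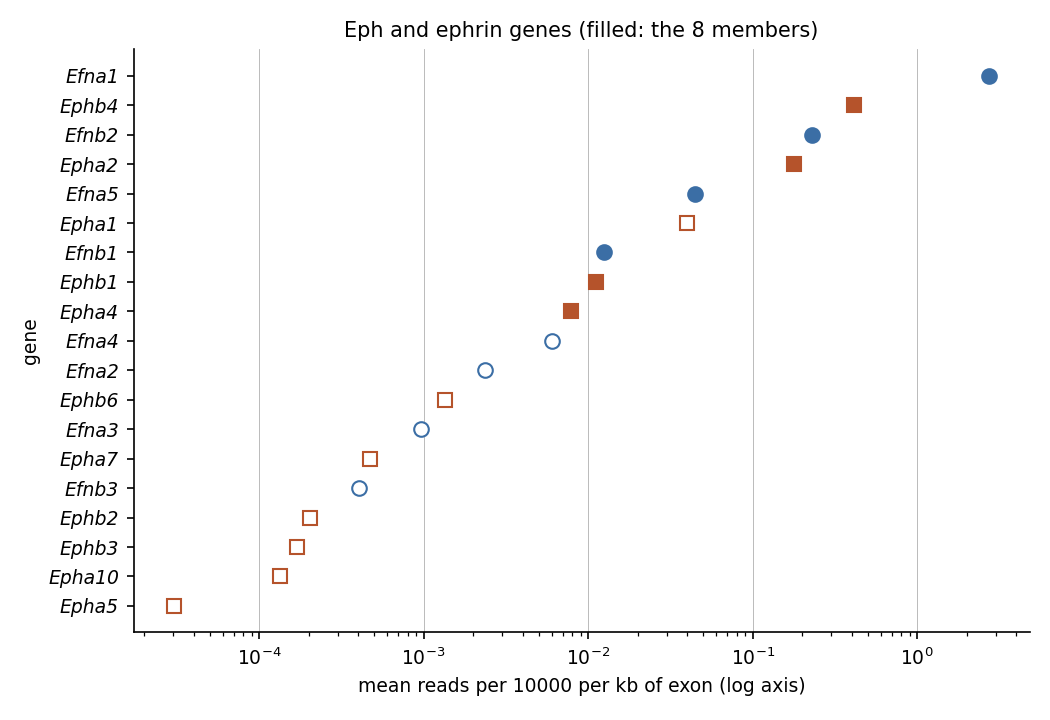
Mean reads per 10000 per kilobase of exon over all cells, on a log axis, for the Eph and ephrin genes with reads (circles for ligands, squares for receptors, filled for the 8 genes). *Efna1* at 2.74 stands to the right of *Ephb4* at 0.413 and *Efnb2* at 0.230, and *Epha1*, at 0.0401, is the highest open symbol.

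The study names LECs of the 2 sides of a valve by *Cldn11*, a tight junction gene, with and without *Gja4*, which encodes connexin 37, and the 8 genes were compared on this basis. *Cldn11* was above 1 (1.72 reads per 10000) in 17.9% of the cells and *Gja4* in 28.5%. *Cldn11* alone was above 1 in 99 cells (11.8%), *Gja4* alone in 22.3% of the cells, both in 52 cells (6.18%) and neither in 59.7%. Values close to the cut are common, since 37 cells had *Cldn11* between 0.8 and 1 and 30 between 1 and 1.2. Of 8 valve markers, only *Neo1* besides *Cldn11* itself was at least 2-fold higher in cells with *Cldn11* above 1. Other log2 ratios there were 0.62 for *Gata2*, 0.23 for *Gja4*, 0.12 for *Nfatc1*, -0.12 for *Itga9*, -0.14 for *Foxc2* and -0.39 for *Gja1*. *Foxc2* is a transcription factor of valves. With *Gja4* above 1, ratios were 0.73 for *Foxc2*, 0.53 for *Gata2*, 0.38 for *Cldn11* and 0.07 for *Itga9*. Those of *Nfatc1* and *Gja1* were -0.08 and -0.40. Within the cells with *Cldn11* above 1, *Gja4* ratios were 0.48 for *Itga9*, 0.44 for *Foxc2* and 0.14 for *Gata2*. Those of *Nfatc1*, *Gja1* and *Neo1* were -0.34, -0.38 and -2.55. *Neo1* was found in 18.2% of cells with *Cldn11* alone and in 2.13% to 7.69% of the other classes. By *Cldn11* and within these cells, it passed the filter given below only through the side where it was higher. The markers did not all go the same way, so the cells are called by *Cldn11* and *Gja4* and not as valve cells. Of 5 fibroblast markers, only decorin (*Dcn*) was found in enough cells to be compared. It was also higher with *Cldn11* (log2 ratio 2.01), at 0.945 against 0.159 reads per 10000. Its part in the values below was not tested.

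*Efnb2* had its highest mean in the 52 cells with both genes, at 0.963, against 0.692 with *Cldn11* alone, 0.788 with *Gja4* alone and 0.645 with neither. Its shares were 84.6% (71.9 to 93.1), 73.7% (63.9 to 82.1), 78.2% (71.6 to 83.9) and 71.8% (67.6 to 75.7) in the same order, and these intervals overlap each other. *Efna1* was lowest in cells with *Cldn11* alone, with a mean of 1.19 and a share of 78.8% (69.4 to 86.4). In cells with *Gja4* alone the mean of *Efna1* was 1.61 and its share 93.1% (88.5 to 96.3). *Ephb4* was nearly level over the 4 classes, with means between 0.806 and 0.879. *Epha2* was level too, with means between 0.331 and 0.395. *Epha4* was found in 15.4% (6.88 to 28.1) of cells with both genes and in 5.77% (3.89 to 8.18) of cells with neither. *Efna5* went the other way, from 15.4% (6.88 to 28.1) with both genes to 26.6% (22.8 to 30.7) with neither. *Ephb1* was found in 0 of the 52 cells with both genes (exact interval up to 6.85%, or 5.77% with 3 cells as the limit) and in 7.95% of cells with neither. *Efnb1* was found in 4.04% to 7.69% of the 4 classes. Median reads per cell differed little between the classes, from 311180.5 with both genes to 387524 with *Gja4* alone. The mean of *Stab2*, a marker used further on, differed more. It was 0.195 with both genes, 0.415 with *Cldn11* alone, 0.564 with *Gja4* alone and 0.922 with neither. Its part in these values was not tested.

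**Figure D3:**
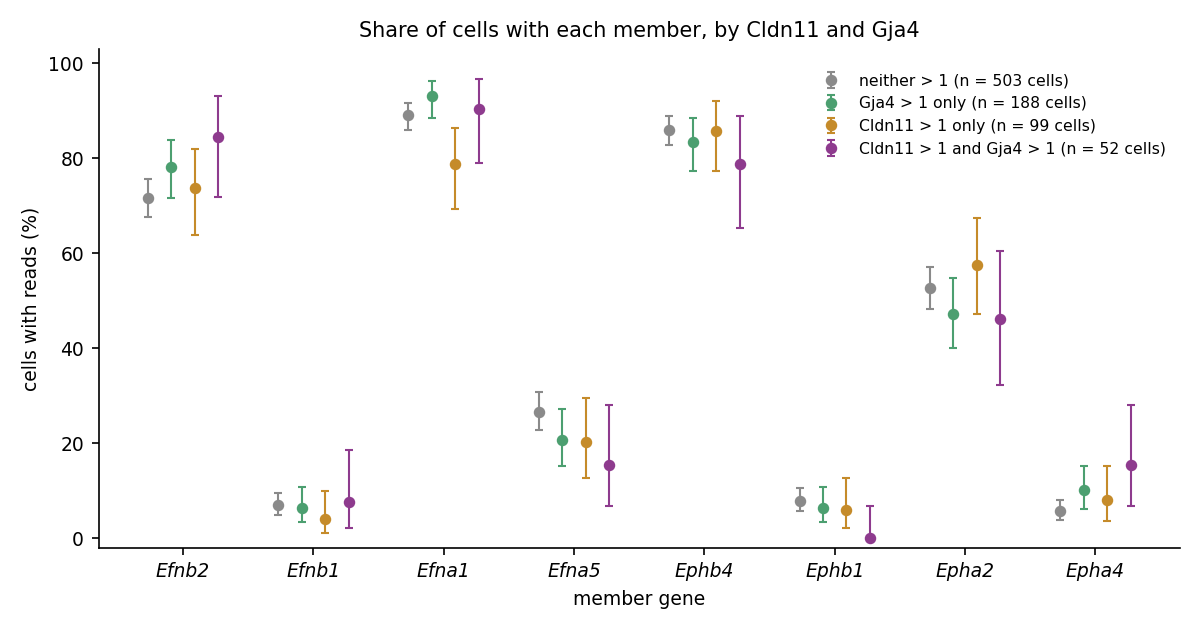
Share of cells with reads of each gene in 4 classes set by *Cldn11* and *Gja4* above 1, with exact 95% intervals for counting error. The classes with 52 and 99 cells have the widest bars, and the bars of *Efna1* part most, at 78.8% with *Cldn11* alone and 93.1% with *Gja4* alone.

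Log2 ratios of mean reads per 10000, with a pseudocount of 0.1, were taken for every gene with reads in 10% or more of the cells on either side, and an absolute log2 ratio of at least 1 was called past the fold. Between cells with *Cldn11* above 1 and the others, 0 of the 8 genes were past the fold, 6 passed the filter, and 0.532% of the 9963 genes tested were past it. The ratios were 0.23 for *Efnb2*, -0.26 for *Efna1*, -0.47 for *Efna5*, -0.08 for *Ephb4*, 0.04 for *Epha2* and 0.20 for *Epha4*. For *Gja4* above 1, again 0 of 6 genes that passed the filter were past the fold, beside 0.3% of all genes tested. *Efnb2* (0.37) and *Efna1* (0.34) had the highest ratios there, both ligands, and *Epha2* the lowest (-0.17). Within the cells with *Cldn11* above 1, those with *Gja4* above 1 were compared with those without, and 0 of 6 genes were past the fold, beside 3.89% of all genes tested. The ratio was 0.46 for *Efnb2*, 0.22 for *Efna1*, 0.20 for *Ephb4*, 0.18 for *Epha2*, 0.06 for *Epha4* and -0.13 for *Efna5*. That of *Efnb2* stayed above 0 under all 13 alternatives (0.32 to 0.83), whereas those of the other 5 genes changed sign under at least 1, as did *Efnb2*, *Ephb4*, *Epha2* and *Epha4* by *Cldn11*, and *Ephb4* and *Epha4* by *Gja4*. *Dcn* was lower with *Gja4* in these cells (-2.17), at 0.217 against 1.33 reads per 10000. *Stab2*, by which *Efnb2* is split further on, was lower too (log2 ratio -1.33). The part of either gene was not tested. *Efnb1* and *Ephb1* did not pass the filter in any of these 3 comparisons, and *Epha4* passed in each only through the side where it was found more often.

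Larger differences appeared when the cells were split by genes of other LEC subtypes, a step added after the data had been seen. The study names *Stab2*, which encodes a scavenger receptor, for *Ptx3*+ capillary LECs, *Fndc1* for *Ptx3*- capillary LECs, and *Foxp2* with *Lyve1*, the hyaluronan receptor of lymphatic capillaries, for precollecting LECs. *Stab2* was above 1 in 31.2% of the cells, *Lyve1* in 48.3%, *Fndc1* in 16.9% and *Foxp2* in 17.7%. Of the 8 genes, 1 was past the fold by *Stab2*, where 6 passed the filter and 2.87% of all genes tested were past it (1.58% lower), and this was *Efnb2*. By *Lyve1* it was 0 of 7 genes beside 1.03%, by *Fndc1* 0 of 6 beside 1.31%, and by *Foxp2* 0 of 6 beside 0.468%. *Epha4* (by *Stab2*, *Lyve1* and *Foxp2*) and *Ephb1* (by *Lyve1* and *Fndc1*) passed only through the side where they were found more often.

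*Efnb2* was lower in cells with *Stab2* above 1, with a mean of 0.441 ± 0.571 (SD over cells) against 0.820 ± 0.672 and a log2 ratio of -1.004. It was found in 60.8% (54.7 to 66.8) of the first and 80.3% (76.8 to 83.5) of the second, and after thinning in 41.9% and 69.9%. Values of single cells overlap widely between the sides. The mean of *Efnb2* was 0.839 in the 42.2% of cells without *Stab2* reads, 0.791 in those with *Stab2* up to 1, 0.595 from 1 to 2, and 0.318 above 2. The mean was thus lower at each step of *Stab2*, with the larger steps above 1. Thinned shares of *Efnb2* were 69.5%, 70.5%, 52.7% and 33.1% in the same order. They were thus lower only with *Stab2* above 1. Median reads per cell were 368560 with *Stab2* above 1 and 350281 in the others. *Plvap*, 1 of 7 blood endothelial markers, was also higher with *Stab2* (log2 ratio 1.32), but *Emcn* was lower (-0.40). *Cd34* was at 0.27. *Sox17* was at 0.88 and passed the filter only through the side where it was found more often. The summed level of the 4 of these markers that passed the filter was 8.70 against 7.93 reads per 10000. Of that list, *Emcn* was found in 94.2% of all cells, *Plvap* in 77.8% and *Cd34* in 28.9%. *Sox17* was found in 4.99%, *Flt1* in 2.49% and *Ly6c1* in 0.594%. Without the cells in which at least 2 of these markers were above 1, the log2 ratio of *Efnb2* was -0.91, short of the fold. It was also short of it with the cells thinned (-0.98), with a cut at 0 (-0.58) or 0.5 (-0.90), and with a pseudocount of 1 (-0.61).

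With *Foxp2* above 1, *Efnb2* was higher, with a mean of 0.942 ± 0.739 against 0.650 ± 0.638 and a log2 ratio of 0.75. This was short of the fold, at percentile 99.4 of all genes tested. *Efnb2* was highest in the 14.8% of cells with *Foxp2* but not *Stab2* above 1, at 1.03 with a share of 85.6% (78.2 to 91.2). In the 24 cells with both above 1 it was at 0.495, close to the 0.436 of cells with *Stab2* alone. *Dcn* was lower with *Foxp2* (log2 ratio -1.28), at 0.0842 against 0.347 reads per 10000, and its part in these values was not tested.

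**Figure D4:**
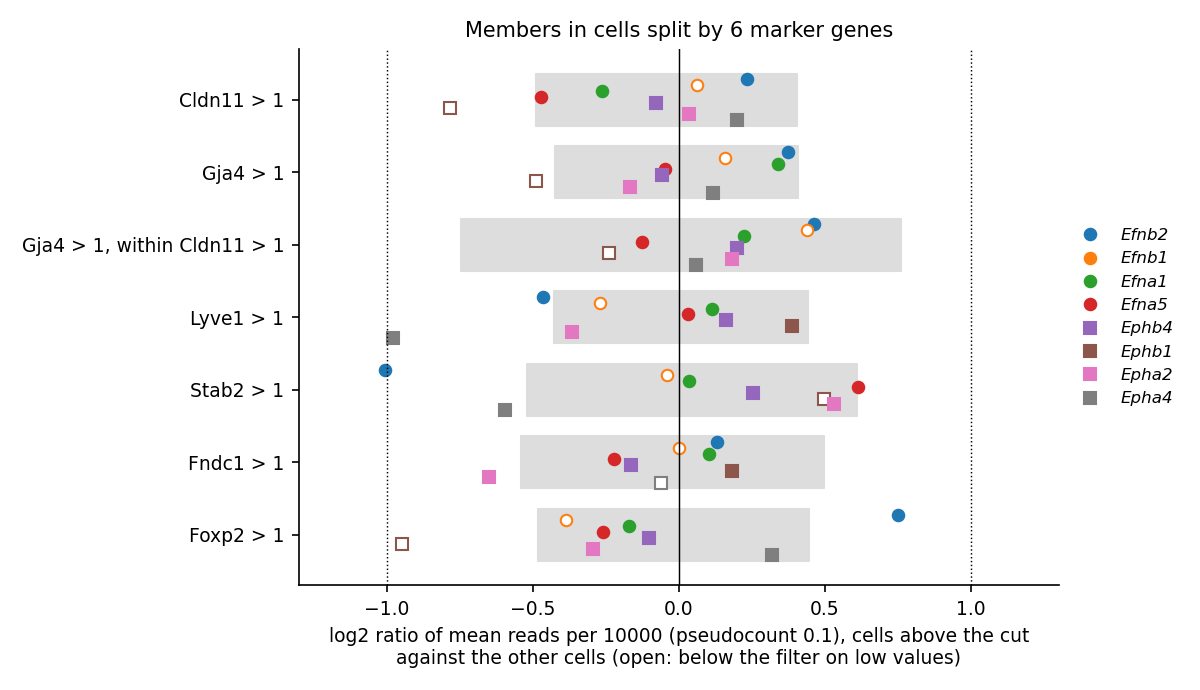
Log2 ratio of mean reads per 10000 (pseudocount 0.1) of the 8 genes between cells above and not above a value of 1 of each marker, with ligands as circles, receptors as squares and open symbols for genes below the filter. Grey bars span the 5th to 95th percentile of all genes tested and dotted lines mark the fold. *Efnb2* reaches the dotted line with *Stab2* (-1.004) and is right of the grey bar with *Foxp2* (0.75), and *Epha4* is near the dotted line with *Lyve1* (-0.98).

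*Epha4* was found mainly in cells low for *Lyve1* and *Stab2*. It was found in 2.21% (1.02 to 4.16) of cells with *Lyve1* above 1 and in 12.6% (9.67 to 16.1) of the others, with a log2 ratio of -0.98, short of the fold. By *Stab2* the shares were 1.90% (0.620 to 4.38) and 10.2% (7.85 to 12.9), with a log2 ratio of -0.60. In both splits *Epha4* passed the filter only through the side where it was found more often. Of the 64 cells with *Epha4*, 51 were among the cells with neither *Lyve1* nor *Stab2* above 1, of which they made up 15.9% (12.1 to 20.4), and 1 was among the cells with both above 1. These sets held 38.1% and 17.7% of all cells. The split depends on the cut. The cells without any *Lyve1* read (13.2% of all) are shallow (median 126771 reads) and had *Epha4* in 7.21%. Those with *Lyve1* above 0 and up to 1 had it in 14.5%. After thinning these shares were 4.04% and 10.7%, and the part of depth was not tested. With any read of *Lyve1* as the cut, the ratio of *Epha4* was 0.31. *Dcn* was lower with *Lyve1* too (log2 ratio -1.02), and its part in these values was not tested.

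*Ephb1* went the other way by *Lyve1*, though not by *Stab2*. It was found in 11.3% (8.39 to 14.8) of cells with *Lyve1* above 1 and in 2.76% (1.43 to 4.77) of the others, with a log2 ratio of 0.39. *Ephb1* passed the filter by *Lyve1*, and also by *Fndc1*, only through the side where it was found more often. By *Stab2* the shares of *Ephb1* were 7.22% (4.41 to 11.1) and 6.74%. With *Foxp2* above 1 it was found in 1.34% (0.163 to 4.76) and otherwise in 8.08%, and with *Fndc1* above 1 in 14.8% (9.39 to 21.7) and otherwise in 5.29%. In the cells with *Lyve1* but not *Stab2* above 1, *Ephb1* was found in 12.4% (8.64 to 17.1), and in the cells with neither in 2.18% (0.881 to 4.44). Thinned to equal depth, these shares were 8.02% and 0.325%. Between these 2 sets of cells *Ephb1* was higher with *Lyve1*, whereas *Epha4* fell from 15.9% to 3.10%. The share of *Ephb1* was 3.09% with *Lyve1* above 0 and up to 1, 2.5% from 1 to 2, and 13.5% above 2. After thinning these shares were 0.946%, 2.90% and 7.84%, so the highest share lay above 2.

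*Efna5* and *Epha2* of class A were higher with *Stab2*, opposite to *Efnb2*. *Efna5* was found in 33.5% (27.8 to 39.5) of cells with *Stab2* above 1 and in 19.5% (16.4 to 22.98) of the others, with a log2 ratio of 0.61. In the cells with *Stab2* above 2 (17.3% of all) the share of *Efna5* was 39.04% (31.1 to 47.5). *Epha2* was found in 59.7% (53.5 to 65.7) against 48.01% (43.9 to 52.2), with a log2 ratio of 0.53. With *Fndc1* above 1 *Epha2* was lower, at 42.3% (34.02 to 50.8) against 53.6%, with a log2 ratio of -0.65. *Plvap* (-1.43) and *Dcn* (-1.41) were also lower with *Fndc1*, *Dcn* at 0.0678 against 0.347 reads per 10000. Of the 3 blood endothelial markers that passed the filter, *Cd34* was lower too (-0.44), but *Emcn* was higher (0.31). Their summed level was 7.90 against 8.19. The part of these genes in the values was not tested. *Efna1* and *Ephb4*, the most widely found ligand and receptor, had log2 ratios from -0.17 to 0.11 for *Efna1* and from -0.16 to 0.25 for *Ephb4* over the 4 markers.

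**Figure D5:**
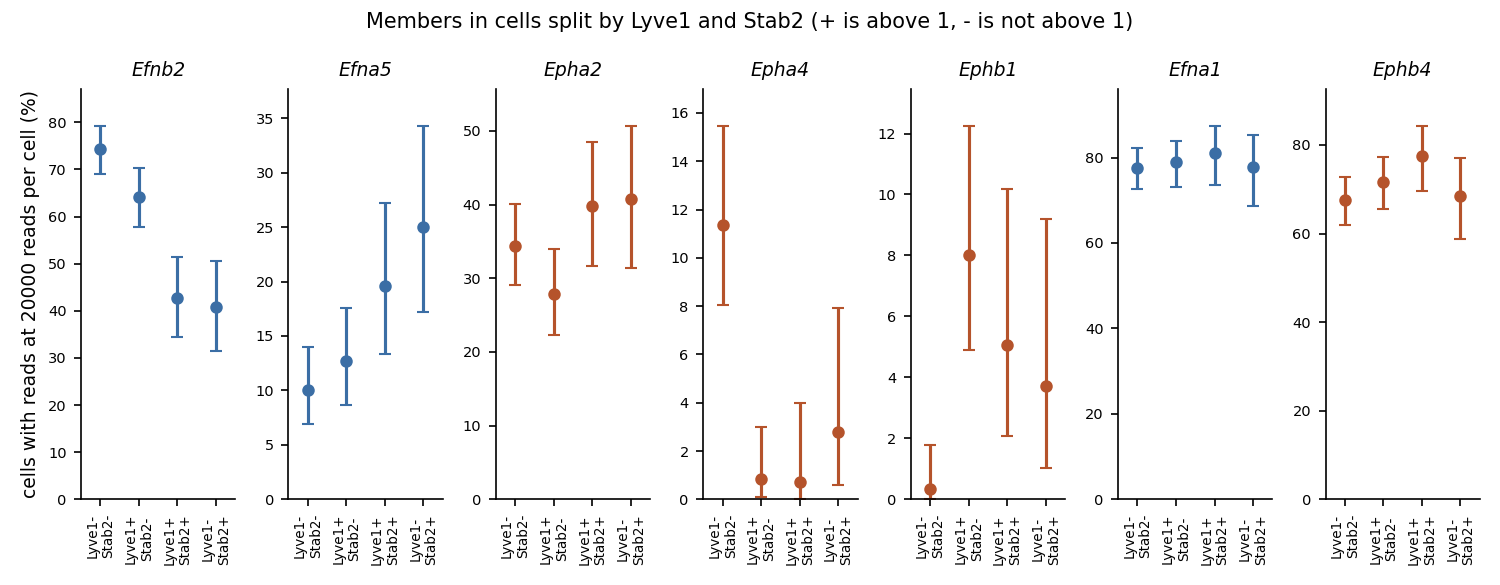
Share of cells with reads at 20000 reads per cell, with exact 95% intervals for counting error, in 4 sets of cells with *Lyve1* and *Stab2* above (+) or not above (-) a value of 1 (each panel has its own axis from 0). *Efnb2* goes from 74.4% in the set low for both to 42.8% in the set high for both, *Epha4* from 11.4% to 0.725%, and *Efna1* stays between 77.6% and 81.2%.

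Ligands and receptors were commonly found in the same cell. After thinning, 75.1% of the cells had at least 1 of the 4 ligands and at least 1 of the 4 receptors, 16.2% a ligand without a receptor, 5.94% a receptor without a ligand, and 2.78% none of the 8 genes. The median was 3 of the 8 genes per cell, and no cell had more than 6. *Efnb2* and *Ephb4* were both found in 340 cells (42.98%). *Ephb4* was found in 70.2% (65.96 to 74.3) of cells with *Efnb2* and in 71.3% (65.9 to 76.3) of cells without, so that the ligand made little difference to the share of its receptor. For *Efna1* and *Epha2*, found together in 27.4% of the cells, the receptor was in 34.9% (31.1 to 38.8) and 31.95% (25.001 to 39.6). Shares parted more for *Ephb4*, with 80.9% (72.5 to 87.6) in cells with *Efna5* and 68.9% (65.3 to 72.4) in those without, and with 72.99% against 62.1% by *Efna1*. Rank correlations over the 28 pairs of the 8 genes lay between -0.07 and 0.11 (Spearman's rho across the thinned cells, which share 1 pool and are not replicates), and are too weak to describe a relation.

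Across the same cells, the genes most like *Efnb2* among 5100 genes included *Clca3a1* (Spearman's rho 0.28), *Fstl1* (0.26), *Nudt4* (0.26) and *Pkhd1l1* (0.24). At the other end were *Gm525* (-0.30), *Aqp1* (-0.28) and *Stab2* (-0.26). The most like genes were *Txnip*, *Lyl1*, *Ddit4*, *Spsb1* and *Robo4* for *Efna1* (0.16 to 0.18), *Stab1*, *Map4k2*, *Prkd2*, *Plvap* and *Kidins220* for *Ephb4* (0.14 to 0.16), and *Tspan14*, *Itga3*, *Odc1*, *Egfl7* and *Gem* for *Epha2* (0.14 to 0.17). All of these are weak and describe these cells only.

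Genes of Eph and ephrin signalling inside the cell were examined as a list. Of 24 such genes, 23 are in the matrix, and 20 or 21 passed the filter in each of the 7 comparisons. None of them was past the fold, beside 0.3% to 3.89% of all genes tested, and at such shares a count of 0 in about 20 genes does not set the list apart. Among them, *Rhoa*, the small GTPase, was found in 96.7% of the cells, *Sdcbp* (syntenin, which binds class B ephrins) in 93.7%, *Adam10*, a protease that sheds ephrins, in 89.3%, *Rgs3*, which acts in reverse signalling, in 73.99%, and the adaptor *Nck1* in 70.3%. *Tiam1* and *Grip1* were found in under 1% of the cells. The median log2 ratio of the list was 0.17 by *Stab2*, where that of all genes tested was 0.04, and -0.06 by *Cldn11*, where that of all genes was -0.03. It was -0.15 by *Gja4* and -0.16 by *Gja4* within the cells with *Cldn11*, where the medians of all genes were 0.0015 and 0.0009. By *Lyve1*, *Fndc1* and *Foxp2* it was 0.06, 0.06 and -0.08, beside 0.01, -0.01 and -0.01 for all genes.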

How the data were processed

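The authors used STAR (mm10) for alignment, featureCounts for gene counts and Seurat 4.1.0 for normalization. The deposited matrix is in natural log units, ln(1 + reads per 10000). Log2 is named in the study's methods, but undoing a natural log returned 10000 reads per cell throughout, and whole reads were then recovered for 100% of the values above 0 (within 0.01 reads). All 842 cells, from 1536 wells listed, were treated as 1 pooled sample, and 0 columns were left out. Mean reads per 10000 were compared with a pseudocount of 0.1 among genes found in at least 10% of cells on either side.

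The 8 genes and the lists were chosen with earlier results of these data known. Named are the 8 genes, other family genes found in at least 5% of cells, and the 5 genes most like each of the 8 found in at least 20% of thinned cells. 1 of the genes most like *Efnb2* is not reported here. Gene names singled out from the marker and pathway lists besides these were chosen after their values were seen. Gene positions come from GENCODE M21 and promoter windows from RefSeq (GRCm38.p6), in which all 8 symbols matched. Reads are PCR copies and not independent molecules. Scripts ran under Python 3.11.15 with SciPy 1.17.1, pandas 2.3.3 and NumPy 2.4.6. *Cldn11* alone was above 1 in 99 cells, *Gja4* alone in 188, both in 52 and neither in 503. *Stab2* was above 1 in 263 cells, *Lyve1* in 407, *Fndc1* in 142 and *Foxp2* in 149. At least 2 blood endothelial markers were above 1 in 283 cells. Thinning kept 791 cells. Alternatives changed the pseudocount, filter, cut, depth and cells.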

Additional observations from a re-analysis of the deposited data

How the results depend on the processing

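With all 13 alternatives applied to the log2 ratios, the number of the 8 genes past the fold stayed at 0 by *Cldn11*, by *Gja4* and by *Fndc1*. By *Stab2* it went from 1 to 0 with a pseudocount of 1, a cut of 0, a cut of 0.5, thinned cells and without cells with blood endothelial markers, and to 2 (*Efnb2* and *Epha4*) with a pseudocount of 0.01. The ratio of *Efnb2* lay between -1.44 and -0.58 over these alternatives. By *Lyve1* the number went from 0 to 1 (*Epha4*) with a pseudocount of 0.01, a cut of 0.5, only cells with at least 100000 reads, pooled reads and the highest cell of each side left out. Higher cuts left few cells. By *Gja4* within cells with *Cldn11*, 2 genes (*Efna5* and *Epha2*) were past the fold at a cut of 1.5, where 15 and 62 cells remained, and 3 (with *Efnb1*) at a cut of 2, where 4 and 32 remained, beside 19.5% and 48.8% of all genes tested. By *Foxp2* at a cut of 2, with 16 cells, it was 2 (*Efnb2* and *Efna5*), beside 24.1%. The cause of the other moves was not tested.

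Counting only values above 1 as found gave 0.594% for *Efnb1*, 31.9% for *Efnb2*, 69.7% for *Efna1*, 2.49% for *Efna5*, 43.3% for *Ephb4*, 17.1% for *Epha2*, 1.19% for *Epha4* and 1.43% for *Ephb1*. Thinning gave 2.78%, 61.2%, 78.6%, 14.5%, 70.7%, 34.3%, 5.18% and 3.92%, in the same order. In cells with at least 100000 reads, *Efnb2* was found in 78.9%, *Ephb4* in 89.1% and *Epha2* in 57.1%. With all reads, *Efnb2* and *Ephb4* shared 63.9% of the cells instead of 42.98%, and *Efna1* and *Epha2* 46.2% instead of 27.4%. Without the 52 wells with reads of both *Xist* and a Y chromosome gene, no number of genes past the fold changed. No paired analysis was possible because the cells form 1 sample.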

Other observations

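The 21 genes that respond to tissue dissociation varied widely between cells, and the 8 genes were described along them. Cells were ordered by their mean over the 21 genes and put into 4 sets of like size. *Efnb2* had a mean of 0.620 ± 0.704 in the lowest set and 0.808 ± 0.653 in the highest, and thinned to equal depth it was found in 53.3% (46.1 to 60.4) and 65.7% (58.7 to 72.2). *Ephb4* went the other way, from 0.917 ± 0.720 to 0.769 ± 0.612, and so did *Efna1*, from 1.46 ± 0.968 to 1.29 ± 0.910. Thinned shares were close to each other for these 2 genes, with 71.4% and 69.1% for *Ephb4* and 76.4% and 76.5% for *Efna1*. *Epha2* was found in 27.6% (21.5 to 34.4) and 35.8% (29.2 to 42.8) after thinning. The highest set was the deepest, with a median of 488563 reads against 290876 in the lowest, and the part of dissociation in the values was not tested.

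Other endothelial genes around the arterial and venous use of ephrin-B2 and EphB4 were found in these LECs to very different degrees. Of 10 arterial genes, 9 are in the matrix. *Notch1* was found in 90.02% of the cells, *Unc5b* in 88% and *Dll4*, a Notch ligand, in 80.2%, whereas *Sox17* was found in 4.99% and *Nrp1* in 0.831%. By *Stab2*, where *Efnb2* was lower, *Unc5b* was past the fold upwards (1.12) and *Hey1*, a Notch target, downwards (-1.97), beside 2.87% of all genes tested. Of 6 venous genes, 5 are in the matrix, and *Nr2f2*, a transcription factor of veins and LECs, was found in 88.8% of the cells and *Ackr1* in 0.713%. Of the venous genes, 4 passed the filter in each of the 7 comparisons and none was past the fold, beside 0.3% to 3.89% of all genes tested, and nothing is read from this count.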
